A study of Mus musculus with 20 samples.

Results

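H3K27me3 peaks were followed from day 5 to day 10 of reprogramming in wild-type (WT) mouse embryonic fibroblasts (MEFs) that received exogenous JMJD3. The members were all peaks of the 2 H3K27me3 lists of these cells, 5064 at day 5 and 3045 at day 10, which make 8109 of the 53171 peaks in the 10 H3K27me3 lists of the series. A day 5 peak was called kept when it overlapped a day 10 peak by at least 1 bp and lost when it did not, and a day 10 peak without a day 5 peak was called new. On this rule 2021 day 5 peaks were kept, 3043 were lost and 1012 day 10 peaks were new.

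The cells carried OSKM, viral transgenes for c-Myc, Klf4, Oct4 and Sox2, together with a Jmjd3 vector. They were labelled as strain C57BL/6J-OG2, in which GFP is driven by Oct4 regulatory sequence. The paper names early-passage WT and KO MEFs for this ChIP-seq, and states that its littermate WT and KO MEFs lacked OG2. Whether those littermate cells were the ones used here is not stated. Medium with LIF and vitamin C was given after infection, and days were counted from the first infection. The other transitions used for comparison were OSKM cells at day 5 and day 10 with a FLAG control vector in WT cells, and with FLAG or JMJD3 in Jmjd3-/- (KO) cells of strain C57Bl6J, so genotype and strain label cannot be told apart. Untreated WT and KO MEFs completed the 10 lists. ChIP averages over all cells of a culture, so cells that lost the mark and a lower level in every cell cannot be told apart. There was 1 library per group, so nothing could be checked against the spread between replicates and no p-value is given. Intervals are 95% Wilson intervals for shares, Newcombe intervals for differences and Poisson intervals for ratios, and they cover counting error only. Neighbouring peaks are not independent. The number of reads behind each list was not used here, and a list from fewer reads can hold fewer peaks.

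H3K27me3 is laid down by Polycomb repressive complex 2 and marks genes that are kept silent, above all CpG-rich promoters of developmental regulators such as Hox genes. JMJD3, encoded by Kdm6b, removes methyl groups from this lysine. On the way to pluripotency fibroblasts switch off fibroblast genes and turn on epithelial and pluripotency genes. The labelled mark was checked on gene lists. Of 21951 protein-coding genes, 2412 (11.0%) had a peak within 5 kb of a transcription start site (TSS) at day 5, against 113 of 118 non-Hox homeobox genes and 1 of 20 housekeeping genes. On Kdm6b itself a peak with a score of 18.5 was called at day 5 (chr11:69404528-69405527) and none at day 10. The FLAG and MEF lists had none there, while KO cells with JMJD3 had one at both days. Vector DNA and the endogenous gene cannot be told apart in these lists.

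The sequences under high-scoring peaks of each class are shown for their CpG dinucleotides, since CpG content is compared between the classes further on. For each class the 2 highest-scoring peaks nearest to a protein-coding gene are shown by 200 bases free of annotated UTR, on the plus strand of GRCm38, with CpG dinucleotides in capitals. Peaks in repeats, with unsequenced bases or at the highest possible score on both days were passed over, a choice made after their values were seen. Trp73, a p53 family factor, and Egr4, a zinc finger factor, were kept.
Trp73, chr4:154140439-154140638: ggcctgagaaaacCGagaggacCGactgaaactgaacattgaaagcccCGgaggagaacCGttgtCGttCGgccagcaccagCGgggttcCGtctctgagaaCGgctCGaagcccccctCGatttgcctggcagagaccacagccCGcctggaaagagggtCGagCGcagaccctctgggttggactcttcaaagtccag
Egr4, chr6:85512617-85512816: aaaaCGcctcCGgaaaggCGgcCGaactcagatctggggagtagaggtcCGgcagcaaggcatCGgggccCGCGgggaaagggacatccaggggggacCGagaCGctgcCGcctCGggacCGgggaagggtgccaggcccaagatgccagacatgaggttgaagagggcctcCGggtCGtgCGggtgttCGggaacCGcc
Adra2b, an adrenergic receptor, and Tmem132e, a membrane protein, were lost.
Adra2b, chr2:127363869-127364068: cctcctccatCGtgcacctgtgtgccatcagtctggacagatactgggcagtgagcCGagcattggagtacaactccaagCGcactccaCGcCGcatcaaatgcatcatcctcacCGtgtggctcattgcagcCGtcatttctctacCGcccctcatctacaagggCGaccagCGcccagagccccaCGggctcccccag
Tmem132e, chr11:82388578-82388777: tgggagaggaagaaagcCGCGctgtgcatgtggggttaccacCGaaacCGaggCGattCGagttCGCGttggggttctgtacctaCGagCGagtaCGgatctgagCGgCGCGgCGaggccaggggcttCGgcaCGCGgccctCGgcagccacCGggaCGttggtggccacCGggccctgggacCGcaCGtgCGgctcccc
Hoxc13, a homeobox factor, and Gdnf, a neurotrophic factor, were under new peaks.
Hoxc13, chr15:102922128-102922327: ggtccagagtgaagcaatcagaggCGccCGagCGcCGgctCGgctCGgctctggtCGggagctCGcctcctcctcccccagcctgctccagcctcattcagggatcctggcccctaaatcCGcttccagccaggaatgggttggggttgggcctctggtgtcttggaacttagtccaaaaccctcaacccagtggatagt
Gdnf, chr15:7811054-7811253: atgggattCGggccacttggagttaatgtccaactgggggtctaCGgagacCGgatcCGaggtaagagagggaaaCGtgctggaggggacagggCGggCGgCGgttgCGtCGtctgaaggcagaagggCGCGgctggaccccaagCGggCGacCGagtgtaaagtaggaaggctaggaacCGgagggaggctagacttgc

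The kept Trp73 peak (chr4:154140039-154141038) lay over the TSS and held 70 CpGs in its 1000 bp. The kept Egr4 peak (chr6:85512217-85513216) began 373 bp from the TSS and held 81. The lost Adra2b peak (chr2:127363469-127364468, in an exon) held 46 CpGs, and the lost Tmem132e peak (chr11:82388178-82389177, over the TSS) held 90. The new Hoxc13 peak (chr15:102921728-102922727, in an intron) held 52 and the new Gdnf peak (chr15:7810528-7811527, over the TSS) held 84. CpG-dense promoters were therefore present among the strongest peaks of every class.

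The list shortened to 0.601 of its day 5 length (0.575 to 0.629). By position, 60.1% (58.7 to 61.4) of day 5 peaks had no day 10 peak and 33.2% (31.6 to 34.9) of day 10 peaks had no day 5 peak. Loss was spread over the genome, from 53.8% on chromosome 10 to 70.9% on chromosome 14 among autosomes. The X chromosome had 40 day 5 peaks, of which 67.5% (52.0 to 79.9) were lost. With both lists at 3045 peaks, taking the best of day 5 by the caller's score, 43.5% (41.7 to 45.2) were lost and 42.7% (40.9 to 44.4) were new. The lists thus differed in position as well as in length. Above a minimum score of 20 on both days, the ratio was 0.307 and the new share 20.2%.

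Lost peaks were mostly weak ones. The score, column 5 of the lists, has no stated scale and ran from 6.62 to 200 at day 5 and from 6.66 to 200 at day 10. Its median was 23.3 in kept and 9.24 in lost day 5 peaks, and 8.14 in new against 12.4 in kept day 10 peaks. Scores of different lists are given as called, and a difference between them is not a measured change of the mark. In the best quartile of day 5 peaks 20.1% (17.9 to 22.4) were lost, in the second 55.5% (52.8 to 58.2), in the third 78.0% (75.6 to 80.2) and in the weakest 86.8% (84.8 to 88.6). New peaks followed the same order, from 7.09% (5.47 to 9.13) of the best to 57.6% (54.0 to 61.0) of the weakest quartile of day 10. Of the 500 best day 5 peaks 445 had a day 10 peak, and 242 had one among the 500 best of day 10. The centre of a kept peak moved by a median of 229 bp, and across the 2021 kept pairs the scores of both days had a Spearman rho of 0.495, given as a description.

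**Figure D1:**
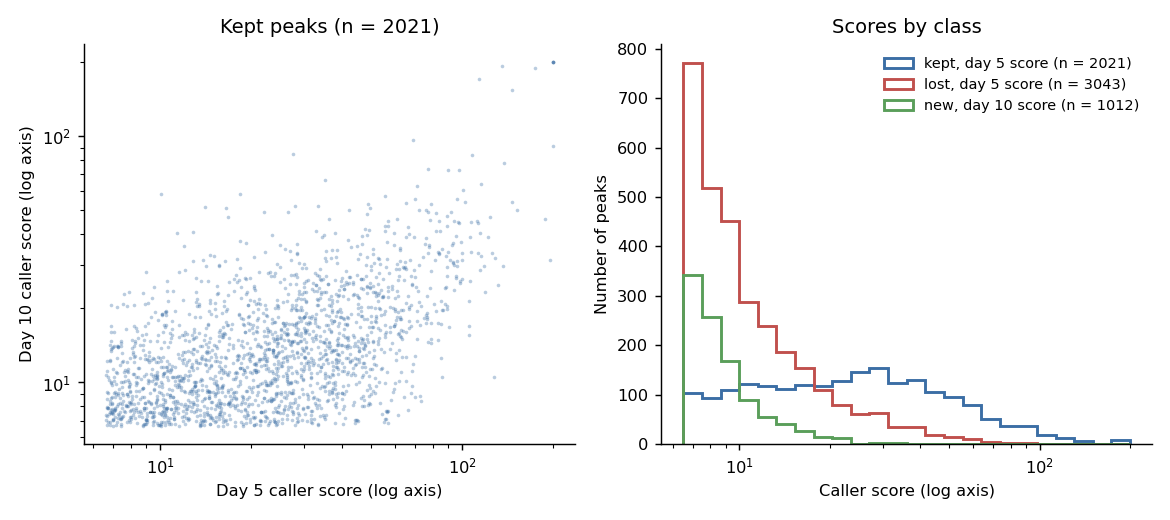
Left, caller score at day 5 (x axis, log) against the best overlapping peak at day 10 (y axis, log) for the 2021 kept peaks, 1 point each. Right, number of peaks (y axis) by score (x axis, log) for kept, lost and new peaks. Lost and new peaks pile up at low scores, with medians of 9.24 and 8.14, while kept peaks spread widely around a median of 23.3.

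The same passage of time was compared in the other cells to ask whether WT cells with JMJD3 stood apart. WT cells with FLAG lost 47.9% (46.7 to 49.2) of their day 5 peaks, KO cells with JMJD3 49.8% (48.6 to 51.0) and KO cells with FLAG 41.7% (40.5 to 43.0). The lost share of WT JMJD3 cells was higher than that of WT FLAG cells by 12.1 points (10.3 to 14.0), and by 10.3 points (8.45 to 12.1) than that of KO JMJD3 cells. With all lists at 3045 peaks the shares were 43.5% in WT JMJD3 cells, 32.6% in WT FLAG, 30.0% in KO JMJD3 and 32.6% in KO FLAG cells. That length takes the day 10 list of WT JMJD3 cells down to its lowest score and only the better part of the others. Among the best 2000 peaks the difference from WT FLAG cells was 8.10 points (5.11 to 11.1), and among the best 1000 it was 3.20 points (-1.13 to 7.52), an interval that includes 0. From KO JMJD3 cells it was 11.2 points (6.94 to 15.4) among the best 1000. From KO FLAG cells it was 18.4 points (16.5 to 20.2) over the full lists and 3.20 points (-1.13 to 7.52) among the best 1000, which also includes 0. In the best quartile of each full list, 20.1% of peaks were lost in WT JMJD3 cells against 8.90% (7.60 to 10.4) in WT FLAG, 7.40% (6.23 to 8.77) in KO JMJD3 and 8.15% (6.83 to 9.69) in KO FLAG cells. The day 10 list of WT JMJD3 cells was also the shortest of the 10, and the part of list length in the full-list differences was not tested further.

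**Figure D2:**
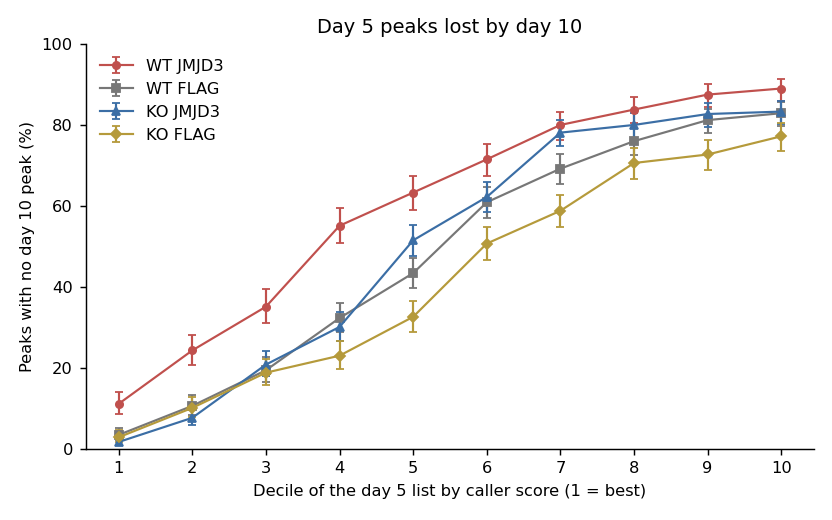
Share of day 5 peaks with no day 10 peak (y axis, percent) by decile of the day 5 list ranked by score (x axis, 1 is best) in the 4 transitions; bars are 95% Wilson intervals. The WT JMJD3 line is the highest in every decile, and all lines rise toward the weakest peaks.

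Day 5 peaks that were lost here were also more often lost in the other cells. Of the lost peaks that WT FLAG cells shared at day 5, 43.8% (41.3 to 46.2) of 1593 had gone from the FLAG list by day 10, against 12.1% (10.7 to 13.7) of 1847 kept peaks. In KO JMJD3 cells these shares were 47.4% (45.1 to 49.7) and 10.1% (8.80 to 11.5), and in KO FLAG cells 37.7% (35.2 to 40.2) and 10.6% (9.21 to 12.1). The differences were 31.6 points (28.7 to 34.5), 37.3 points (34.6 to 40.0) and 27.1 points (24.2 to 30.0) in the same order. Averaged within quartiles of the day 5 score, the difference was 23.3 points for WT FLAG, 26.8 for KO JMJD3 and 18.9 for KO FLAG cells. The sets of peaks overlap between these comparisons, which share the WT JMJD3 lists.

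Many lost peaks were present in other lists. WT MEFs had 47.7% (45.9 to 49.4) of them and WT FLAG cells at day 5 had 52.3% (50.6 to 54.1), while 18.9% (17.5 to 20.3) were in none of the other 8 lists. At day 10, 34.5% (32.9 to 36.2) of lost peaks were still called with FLAG in WT cells, 38.3% (36.6 to 40.0) with FLAG in KO cells and 34.6% (32.9 to 36.3) with JMJD3 in KO cells. All 3 of these day 10 lists held 499 lost peaks (16.4%, 15.1 to 17.8). These 499 had a median score of 15.3, 75.8% lay within 5 kb of a TSS and 24.8% were CpG-rich. The 1310 lost peaks in none of the 3 had a median score of 8.04, and 36.1% lay near a TSS. Kept peaks were shared far more widely, with 52.3% (50.1 to 54.5) of them in all of the other 8 lists.

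New peaks were looked up in the lists of earlier times. Of the 1012, 50.9% (47.8 to 54.0) were in WT MEFs or at day 5 with FLAG, beside 95.2% (94.1 to 96.0) of kept and 63.8% (62.1 to 65.5) of lost peaks. Of the new peaks 27.2% (24.5 to 30.0) were in none of the other 8 lists. Of the new peaks at equal list length, 32.3% were in WT MEFs or at day 5 with FLAG. Those found in none had a median score of 7.47 and 36.0% lay within 5 kb of a TSS, against 69.7% of those seen in WT MEFs or at day 5 with FLAG. At Nkx1-1, a homeobox gene and an example chosen after its values were seen, the lost peak ended at 33433270 on chromosome 5 and the new one began at 33433423. Over the whole class, 230 new peaks (22.7%, 20.3 to 25.4) lay within 5 kb of a day 5 peak. Likewise 401 lost peaks (13.2%, 12.0 to 14.4) lay within 5 kb of a day 10 peak.

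**Figure D3:**
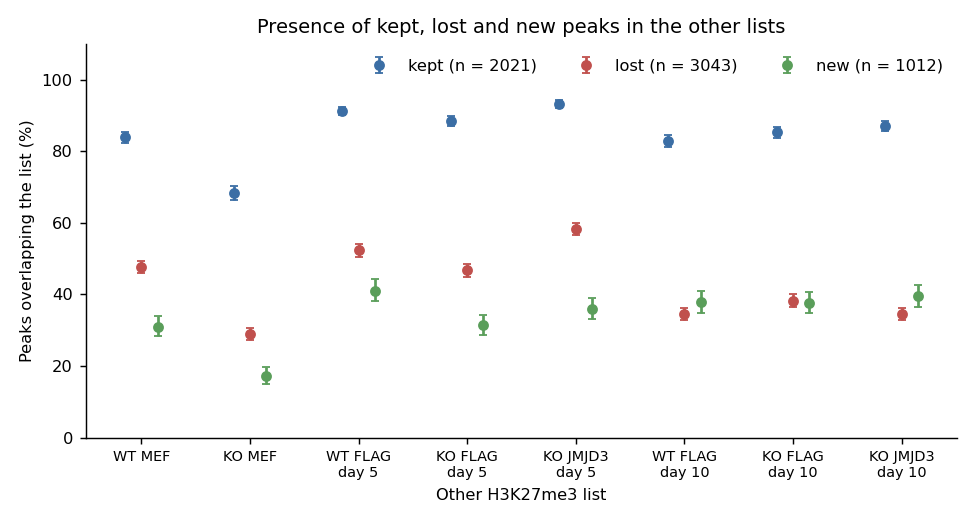
Share of kept, lost and new peaks (y axis, percent, with 95% Wilson intervals) that overlapped each of the other 8 H3K27me3 lists (x axis). Kept peaks lie between 68.4% and 93.3% in every list, and lost peaks lie above new peaks in the MEF and day 5 lists and near them at day 10.

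Kept peaks lay near a TSS and were CpG-rich at higher shares than lost or new peaks. Within 5 kb of a TSS lay 77.3% (75.5 to 79.1) of kept, 51.3% (49.6 to 53.1) of lost and 56.8% (53.7 to 59.8) of new peaks, a difference of lost from kept peaks of -26.0 points (-28.5 to -23.4). Windows were called CpG-rich at a GC content of at least 55% and a CpG observed/expected ratio of at least 0.65. This held for 33.2% (31.1 to 35.2) of kept, 7.95% (7.04 to 8.97) of lost and 9.39% (7.74 to 11.3) of new peaks, against 36.3% of windows of the same length around protein-coding TSSs. Most kept peaks were thus not CpG-rich by this threshold, and 30.7% (28.8 to 32.8) lay over a TSS. Kept peaks had a median of 45 CpGs per 1000 bp, lost peaks 18 and new peaks 19. Centres of lost peaks were intergenic in 41.1% (39.4 to 42.9) and those of kept peaks in 23.8% (22.0 to 25.7).

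Score and sequence moved together, so both were set side by side. In the best quartile of day 5 scores 81.7% of kept and 79.5% of lost peaks lay within 5 kb of a TSS, intervals that overlap. CpG-rich windows differed there, at 42.9% (39.9 to 46.0) of kept and 26.8% (21.7 to 32.5) of lost peaks. In the weakest quartile 12.0% (7.89 to 17.8) of kept and 3.28% (2.38 to 4.50) of lost peaks were CpG-rich. Averaged within quartiles of score, the difference of lost from kept peaks was -15.8 points for TSSs and -14.3 points for CpG-rich windows. Score was not held fixed by this, since the best quartile ran from 23.2 to 200. Within it, loss was 11.1% in the best decile of the list and 24.3% in the second. CpG-rich peaks were lost at 26.5% (23.6 to 29.7) near a TSS and 26.5% (19.3 to 35.4) farther away. Peaks that were not CpG-rich were lost at 58.0% (56.0 to 60.0) near a TSS and at 79.5% (77.5 to 81.3) farther away. The median scores of these 4 sets were 25.6 and 30.3 for CpG-rich peaks near and far, and 12.7 and 9.09 for the others, so the sets with more loss also had lower scores.

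**Figure D4:**
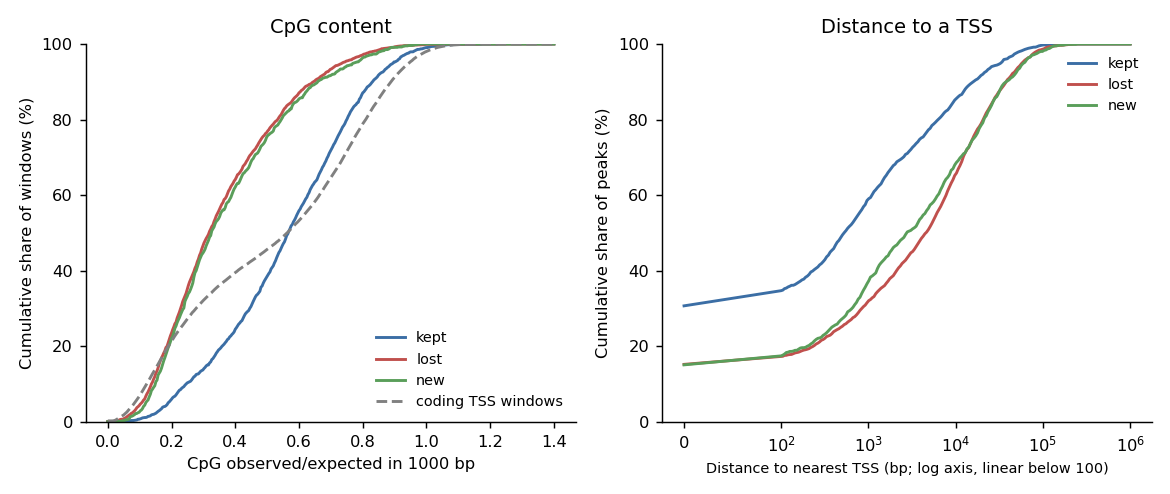
Cumulative share (y axis, percent) of kept, lost and new peaks by CpG observed/expected ratio in 1000 bp (left) and by distance to the nearest TSS (right, log axis, linear below 100 bp); the dashed line gives windows around protein-coding TSSs. Lost and new peaks run close together on the left, with median ratios of 0.317 and 0.325, while kept peaks have a median of 0.565.

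Few peaks overlapped KLF4, the reprogramming factor, mapped at day 5 in WT cells with JMJD3. A KLF4 peak lay over 3.61% (2.88 to 4.52) of kept, 1.35% (0.995 to 1.82) of lost and 3.46% (2.50 to 4.77) of new peaks, a difference of lost from kept peaks of -2.26 points (-3.24 to -1.39). Within 5 kb the shares were 16.8% (15.2 to 18.5), 11.7% (10.6 to 12.9) and 18.9% (16.6 to 21.4). FLAG-JMJD3 positions, mapped at day 5 with OSKM, fell in 11 kept (0.544%), 6 lost (0.197%) and 10 new peaks (0.988%), and lay within 5 kb of 5.10%, 4.57% and 7.51% of them.

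Loss was set beside the spacing of the peaks. Peaks with no other day 5 peak within 5 kb were lost at 59.8% (58.2 to 61.3) and the others at 61.3% (58.3 to 64.2), a difference of -1.55 points with an interval that includes 0 (-4.83 to 1.80). With groups defined within 2 kb the difference was -17.9 points, and the 295 grouped peaks then had a median score of 7.34 against 12.4 for the isolated ones. Chaining peaks within 5 kb gave 4470 domains at day 5 and 2819 at day 10, and domains of 4 or more peaks went from 34 to 4. The 153 peaks of those 34 domains were lost at 52.9% (45.1 to 60.7), an interval that includes the 60.1% over all peaks. The largest, of 7 peaks at Tlx1, a homeobox gene of spleen formation, had 5 at day 10. The next, each of 6 peaks, were Hoxb6 to Hoxb9 with 3 at day 10, Foxa1, a pioneer factor of endoderm, with 3, Hoxc8 and Hoxc9 with 2, and the region around Lbx1, a muscle and neural homeobox gene, with 3. None of these 3 lay within 5 kb of a Lbx1 TSS, so Lbx1 itself counted as lost in the gene counts.

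Across the 4 Hox clusters, whose genes set position along the body axis, peaks fell from 10 to 7 in Hoxa, from 24 to 14 in Hoxb, from 16 to 10 in Hoxc and from 13 to 10 in Hoxd. Kept were 4 of 10 day 5 peaks in Hoxa, 9 of 24 in Hoxb, 5 of 16 in Hoxc and 9 of 13 in Hoxd, beside 2021 of 5064 over the whole list. With FLAG in WT cells the numbers went from 9 to 8, 19 to 13, 16 to 14 and 14 to 9. All 4 clusters held peaks at day 10, and the fall in number stands beside a ratio of day 10 to day 5 peaks of 0.601 over the whole list with JMJD3 and 0.798 with FLAG.

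At the level of genes, 932 of the 2412 genes marked at day 5 had no peak within 5 kb of a TSS at day 10 (38.6%, 36.7 to 40.6), and 333 of 19539 unmarked genes gained one (1.70%). One peak can mark several neighbouring genes. With a minimum score of 20, the lost share of marked genes was 72.7%. The best day 5 score at the gene followed the loss, from 8.79% (6.78 to 11.3) of genes in the best quartile to 71.1% (67.4 to 74.6) in the weakest. Genes with 1 peak were lost at 40.9% (38.8 to 43.0) and genes with 3 or more at 20.4% (11.8 to 32.9). Of the 932 lost genes, 568 (60.9%) still had a peak at day 10 with FLAG in WT cells, beside 1367 of 1480 kept genes (92.4%) and 2660 of all 21951 genes, and 347 had one in all of the other 3 day 10 lists. Of the 333 gained genes, 219 (65.8%) had been marked at day 5 with FLAG, beside 3230 of all 21951 genes, and 29 were marked in none of the other 8 lists.

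Most developmental transcription factor genes that were marked at day 5 were also marked at day 10. Over 7 lists of such factors together, 53 of 230 marked genes were lost (23.0%, 18.1 to 28.9) beside 38.6% over all genes. Their day 5 scores were higher, with a median best score of 28.6 beside 17.6 over all marked genes, and they had more peaks, with a mean of 1.64 beside 1.18. Within the best quartile of scores they were lost at 10.5% (5.82 to 18.3), beside 8.79% of all genes there, and in the second at 27.7% (18.3 to 39.6), beside 26.9%. In the third they were lost at 23.8% (13.5 to 38.5), beside 47.8% (43.8 to 51.7), and in the weakest at 53.6% (35.8 to 70.5), beside 71.1% (67.4 to 74.6). Only in the third did these intervals not overlap. By list, 7 of 33 Hox, 27 of 113 other homeobox, 4 of 24 forkhead, 4 of 11 T-box, 2 of 10 Sox and 9 of 34 bHLH genes were lost, and none of 5 GATA genes.

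The Hox genes lost were Hoxa4, Hoxa11, Hoxb2, Hoxc4, Hoxc8, Hoxc11 and Hoxd10, and all but Hoxa11 still had a peak in the other 3 day 10 lists. Hoxc8 had 4 peaks at day 5 with a best score of 27.8 and none at day 10, where WT FLAG cells had a best score of 27.8. Hoxc13 had a peak at both days, with best scores of 6.88 and 37.4. Hoxa3 and Hoxa6 gained a peak, with scores of 11.6 and 11.6. Among the homeobox genes, Lhx8, a forebrain factor, was lost from a score of 63.2, and Cdx2, the trophectoderm factor, from 19.9. The mesendoderm factors T and Eomes were marked at both days, T with scores of 23.6 and 7.62 and Eomes with 14.4 and 17.1.

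Of 6 GATA genes, factors of endoderm, heart and blood, 5 were marked at both days, and Gata1, the erythroid factor, had no peak at either. Gata4 had a best score of 35.2 at day 5 and 66.3 at day 10, Gata6 48.5 and 32.4, and Gata5 85.6 and 19.6. Among forkhead genes Foxd1, a stromal factor, was lost from a score of 55.5 and was called in none of the other 3 day 10 lists. Tbr1, a cortical factor, was lost from 41.4 and Tbx20, a heart factor, from 39.1, and both were called in all of the other 3.

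Of 64 signalling ligand genes 41 were marked at day 5, beside 11.0% of all genes. Of the 41, 10 were lost (24.4%, 13.8 to 39.3), an interval that includes the 38.6% over all genes. Among the ligand genes unmarked at day 5, 4 gained a peak, beside 1.70% of unmarked genes over all genes. At day 5 with FLAG in WT cells 48 ligand genes were marked. Bmp7 was lost from a score of 54.8, Bmp2 from 37.8 and Nodal, which patterns the early embryo, from 14.2. All of these 3 were still called in the other day 10 lists. Fgf10, Fgf16, Fgf2 and Wnt2 gained a peak, with Wnt2 at 15.0. Shh was marked at both days with scores of 35.1 and 10.5.

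Pluripotency genes held 14 marked genes of 28, beside 11.0% of all genes. Of these 6 were lost, and no unmarked gene of the list gained a peak, beside 1.70% over all genes. Esrrb, Lin28a, Utf1 and Prdm14, all of the pluripotency network, were marked at both days, with scores of 99.5 and 37.3, 89.9 and 33.9, 95.9 and 29.9, and 47.2 and 18.1. Lost were Gbx2, Mycn, Nr0b1, Sall1, Sall4 and Trim71, with day 5 scores from 9.67 to 30.5. Sall4, a zinc finger factor of embryonic stem cells, was lost from 21.5 and had a score of 10.2 at day 10 with FLAG. Nanog had no peak at either day here, and one at day 5 with FLAG at a score of 7.61. The lost share of the list was 42.9%, with an interval (21.4 to 67.4) that includes the 38.6% over all genes.

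Epithelial genes held 16 marked genes of 39, beside 11.0% of all genes. Of these 7 were lost (43.8%, 23.1 to 66.8), an interval that includes the 38.6% over all genes. No unmarked gene of the list gained a peak, beside 1.70% over all genes. Spint1, a protease inhibitor of epithelia, was lost from a score of 73.8 (chr2:119236919-119237918), where WT FLAG cells had 61.2 at day 5 and 8.56 at day 10. Epcam, an adhesion molecule, was lost from 9.24, where WT MEFs had 75.7, WT FLAG cells 59.1 at day 5 and 10.3 at day 10. Cldn3, Cldn4 and Cldn6, claudins of tight junctions, were lost from 9.96, 9.13 and 9.29. Cdh1, the epithelial cadherin, had no peak at either day here and scores of 94.6 in WT MEFs and 36.6 at day 5 with FLAG. Grhl2, Ovol1, Ovol2, Esrp1, Ocln and Cldn7 were marked at both days, with day 5 scores from 46.9 to 86.2 and day 10 scores from 8.47 to 19.6.

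The remaining lists are given by their counts. Of 34 mesenchymal and fibroblast genes 2 were marked at day 5, beside 11.0% of all genes. Tcf21 was lost from 34.0 and Pdgfra kept a peak. Twist2 and Col5a1 gained one with scores of 9.69 and 8.87, beside 1.70% of unmarked genes over all genes. The lost Pdgfra peak had a score of 56.5. Of 7 cell cycle inhibitor genes 0 were marked at day 5, beside 11.0% of all genes, and 1 gained a peak, beside 1.70% of unmarked genes. This was Cdkn1c with a score of 21.5, which was marked in all of the other 8 lists. Of 31 Polycomb and demethylase genes 3 were marked at day 5, beside 11.0% of all genes. Cbx8 was among those marked at both days, and Pcgf3 was lost. Bmi1, Cbx2 and Phc2 gained a peak, with 1.70% of unmarked genes gaining one over all genes. In the other 8 lists the number of marked genes of this list ran from 3 in KO JMJD3 cells at day 5 to 9 in WT MEFs. Potassium channel genes lost 18 of 60 (30.0%, 19.9 to 42.5), glutamate and GABA receptor genes 8 of 27 (29.6%, 15.9 to 48.5) and collagen genes 6 of 15 (40.0%, 19.8 to 64.3), and all 3 intervals include the 38.6% over all genes. Protocadherin genes lost 3 of 6, olfactory receptor genes 3 of 4 and cytochrome P450 genes none of 6, counts too small to set beside that share.

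**Figure D5:**
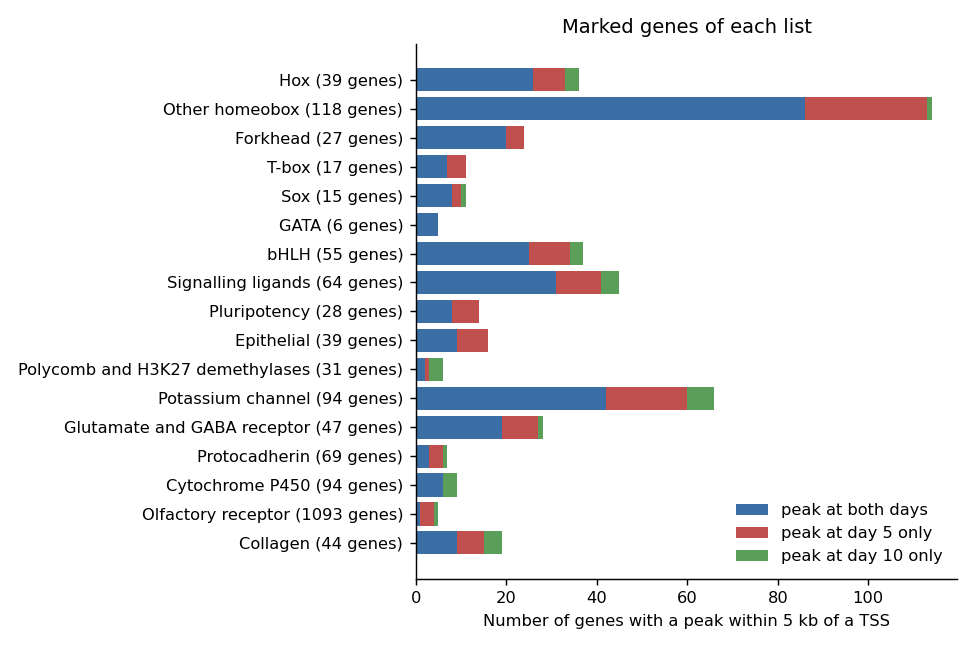
Number of genes (x axis) of each list with a peak within 5 kb of a TSS at both days, at day 5 only or at day 10 only, for lists with at least 5 such genes; the number of genes in each list is in brackets. Other homeobox genes have 86 at both days, 27 at day 5 only and 1 at day 10 only.

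The highest scores of each class were taken by rule. Among kept peaks the 4 at the highest score of 200 on both days were at Gm10800, Gm33838, CT010467.1 (an rRNA gene) and Aida, and the first 2 were 86.6% and 58.8% repeat-masked. Each of these had a score of at least 132 in all of the other 8 lists. They were followed by Trp73 with scores of 200 and 91.0, 4930542C12Rik beside Ddx43 with 195 and 31.4, Egr4 with 188 and 46.0, Gm28502 with 174 and 189, Gm45623 with 152 and 50.2, and Nrxn2, a synaptic adhesion gene, with 146 and 54.3. Repeats were rare, and 0.693% of kept, 1.28% of lost and 0.889% of new peaks were over 50% masked.

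Among lost peaks the highest, at chr19:61332519-61333518 with a score of 200, lay wholly in unsequenced bases of the reference. The next were Adra2b with 98.6, Gm37608 with 94.4, Tmem132e with 88.7, Prob1 with 85.9, Tmem178b with 82.8, Spint1 with 73.8, Chst8 with 73.1, Mir7-2 with 66.5 and Kcnk1, a potassium channel, with 66.1. Apart from the unsequenced locus, each was called in WT MEFs and in all of the other 3 day 5 lists. At day 10 with FLAG in WT cells no peak overlapped the windows at Chst8 and Kcnk1, though Chst8 had another within 5 kb of its TSS with a score of 15.6, and the peak at Adra2b had a score of 36.5.

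The highest new peaks were at Hoxc13 with 37.4, Gdnf with 35.5, Grik3, a kainate receptor, with 33.7, Foxd4 with 29.6 and 23.4, Neurog2, a neurogenic factor, with 28.2, Tiam2 with 24.6, Onecut3 with 22.7, Gbx1 with 21.8 and 1700041B01Rik with 21.7. At day 5 with FLAG in WT cells the peak overlapping the Hoxc13 window had a score of 18.1, that at Gdnf 34.5, at Grik3 34.0 and at Neurog2 34.0. No such peak overlapped the windows at Gbx1 and Tiam2, while Gbx1 had another peak within 5 kb of its TSS with a score of 27.7. New peaks near Hoxc13, Grik3, Foxd4, Onecut3 and Gbx1 lay at genes that carried another peak at day 5.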

How the data were processed

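Peak lists of 10 H3K27me3 libraries, 2 KLF4 libraries and 1 FLAG-JMJD3 library from mouse cells were used, each from 1 library. The study's methods state that reads were aligned to mm10 with bowtie2 (version 2.2.0 in the submitters' processing notes, while the methods name another) and that H3K27me3 peaks were called with DFilter and KLF4 and JMJD3 peaks with MACS2. Every deposited H3K27me3 peak spans 1000 bp and carries a caller score that the authors did not explain in the sources used here. It served for ranking and thresholds, and scores of several lists printed side by side are not amounts of the mark. Peaks with a score of at least 20 numbered 455 in WT JMJD3 cells at day 10, 1482 at day 5 and 2328 in KO JMJD3 cells at day 5. Drosophila cells were mixed in as a spike-in and mouse reads were scaled to it. Whether this came before peak calling is not stated, so numbers of peaks are not amounts of the mark.

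Peaks overlapped at 1 bp or more. TSSs came from GENCODE M21 basic transcripts and sequence and repeat masking from GRCm38.p6 (RefSeq), the build of mm10. Neighbouring peaks of 1 list could overlap (107 pairs at day 5, 49 at day 10), but none did among the best 2000 of any list. Sequence was read with samtools 1.23.1 and pysam 0.24.0, under Python 3.11.15 with scipy 1.17.1 and numpy 2.4.6. Overlaps were checked with bedtools 2.31.1, and on simulated lists of 5064 and 3045 peaks all 2000 shared peaks were recovered.

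The rule named about 30 genes of 20 gene lists, the genes at the 10 best kept, lost and new peaks and the 5 day 5 domains with most peaks, and the further list members in the text were chosen after their values were seen. The inputs, the H3K27ac samples and the JMJD3 list with low KLF4 were not used here. The labels call the OSKM delivery lentiviral and the treatment protocol retroviral. The peaks, gene lists and comparisons were chosen with earlier results of these data known. Sequences on chromosome 18 were left out. Alternatives covered the overlap rule, list length, score, chromosomes, TSS set and distance, CpG threshold, clustering distance and KLF4 list. Some genes of the lists are not reported here by name.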

Additional observations from a re-analysis of the deposited data

How the results depend on the processing

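Of 50 alternative values for 12 results, 19 stayed within the 95% interval of the reported value, 31 moved outside it and none changed direction. A minimum score of 20 gave a ratio of day 10 to day 5 peaks of 0.307, a lost share of 75.5%, a new share of 20.2%, a lost share of marked genes of 72.7% and a difference between JMJD3 and FLAG of 14.7 points. At equal list length the lost share was 43.5%, the new share 42.7%, the lost share of marked genes 28.3%, the quartile difference 56.1 points, the TSS difference -17.8 and the CpG difference -22.2 points, and 32.3% of new peaks were in WT MEFs or at day 5 with FLAG. With the better 50% of each list 55.8% were lost and 26.4% were new. An overlap of at least 50% gave 67.7% lost, 46.2% new, a quartile difference of 58.1 points, 29.9% of lost peaks still called at day 10 with FLAG and 45.3% of new peaks seen earlier. Sharing within 1 kb gave 57.3%, 28.7% and, for lost peaks still called with FLAG, 36.7%. Averaged within score quartiles the TSS difference was -15.8 and the CpG difference -14.3 points. A TSS distance of 10 kb gave -19.8 points, a looser CpG threshold -30.5, a KLF4 distance of 5 kb -5.07 and a TSS distance of 1 kb a lost gene share of 42.0%. Clustering within 2 kb gave -17.9 points for isolated against clustered peaks, and the 295 clustered peaks had a median score of 7.34 against 12.4. Among the best 2000 and 1000 peaks, chosen after seeing the data, the difference between JMJD3 and FLAG was 8.10 and 3.20 points. Leaving out peaks over 50% repeat-masked, also added later, gave 60.0% lost. No paired analysis was possible because each group had 1 library and no result came from a test. Read depth, which can set the length of a list, was not analysed here.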

Other observations

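A small set of kept peaks was called in WT JMJD3 cells and in no other list. Of the 2021 kept peaks 16 were in none of the other 8 lists (0.792%, 0.488 to 1.28). They included a peak over the TSS of Pgk1, a glycolytic enzyme gene (chrX:106186499-106187498), with scores of 7.22 at day 5 and 20.2 at day 10. Another (chr3:34661086-34662085), with scores of 11.5 and 10.2, lay 2204 bp from a TSS of Gm42693. Its nearest protein-coding gene, farther away, was Sox2, a reprogramming and pluripotency factor. Others lay 299 bp from a TSS of Aff3, 361 bp from one of Esr2, 11108 bp from one of Ebf3 and 12583 bp from one of Tfap2b, and all 16 had day 5 scores of at most 14.3. These peaks were named after their values were seen.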
